A study of Mus musculus with 36 samples.

Results

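The genes described here are 37 genes of the lysosome, chosen by symbol: the cathepsins and legumain, other lysosomal hydrolases, their cofactors, lysosomal membrane proteins, subunits of the proton pump, the channel gene Mcoln1 and the transcription factor gene Tfeb. All 37 were found among the 20720 genes listed in the tables. They were measured by single-cell RNA sequencing of the left ventricle (infarcted region) of 8-week-old male C57BL/6 mice. Cells were sorted into the wells of plates and sequenced by SORT-seq, which counts 3′ ends of polyadenylated RNA with molecular identifiers (UMIs). The 36 plates came from 4 plates of sham-operated hearts at day 1 and 8 at day 14, from 9, 7 and 3 plates taken 1, 3 and 14 days after ischemia-reperfusion (IR, in which the left anterior descending artery was tied off for 1 hour), and from 5 plates taken 3 days after myocardial infarction (MI, in which the same artery stayed tied off). All of these mice had surgery, sham included, and the labels name no transgene.

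The lysosome is the acidic compartment in which cells break down material taken up from outside and their own worn components. A proton pump, the V-ATPase, acidifies it, proteases and glycosidases digest the cargo, and membrane proteins protect its wall. Macrophages, which clear dead cells from the infarct, are known for many lysosomes, while cardiomyocytes rely on the same compartment for autophagy.

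Wells with at least 1000 UMIs were clustered without the 37 genes, and clusters were named from markers. The 612 macrophage-like, 351 fibroblast-like, 398 endothelial-like and 1242 cardiomyocyte-like cells are called by those class names below. Of 10 macrophage markers listed, 10, 9 and 10 marked the 3 macrophage clusters, all 9 endothelial markers marked both endothelial clusters, 8 and 9 of 9 fibroblast markers marked the fibroblast clusters, and 5 to 9 of 9 cardiomyocyte markers marked each cardiomyocyte cluster. UMIs were summed per plate and class and given per 1000000 UMIs of that sum (CPM), for plates with at least 5 cells of the class. The plates held 176614 to 5551870 UMIs in all, and the summed libraries 5524 to 671394 UMIs for cardiomyocytes, 7918 to 661816 for endothelial cells, 29515 to 1736318 for fibroblasts and 28174 to 1914774 for macrophages. Sham day 14 replicates 2 and 7 held 1 plate deposited 2 times and were counted as 1 plate, and 39 wells that copied a well of another plate were left out. The MI plates were deeper than nearly all others and were described under a separate surgery label, so that plate batch and MI cannot be told apart. Which mouse gave which plate is not given in the sources used here. For MI the methods name fewer hearts than there are plates, so that some MI plates share a mouse, and other plates may. The p-values below measure the spread between plates and are too small where plates share a mouse. No sham plates exist in the labels for day 3, and day 3 was compared with sham of day 1 and day 14 weighted equally, or with sham day 1 alone for macrophages.

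Promoters were read first, because the members were compared as a set. Tfeb encodes a transcription factor known to bind the letters TCACGTGA upstream of lysosomal genes. In the RefSeq promoter windows used here (GRCm38.p6, 250 bases before to 50 bases after the gene start) 31 members had a window. CACGTG stood in 10 of them, 32.3%, against 8.09% of all 27025 genes with a window and 9.83% of the 14924 listed in the UMI tables. The longer TCACGTGA stood in 6 members, 19.4%, against 1.12% and 1.63%. Both motifs are palindromes, so that 1 match counts for both strands, and each TCACGTGA also holds a CACGTG. The windows below show the longer motif in the 6 promoters that held it, and the shorter one in Lamp1, Lgmn, Glb1 and Ctsl, with the motif in capitals and each sequence on the strand of its gene.
Ctsd (aspartic protease), chr7:142387910-142387935, minus strand: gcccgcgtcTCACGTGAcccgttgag
Ctsa (serine carboxypeptidase), chr2:164833751-164833776, plus strand: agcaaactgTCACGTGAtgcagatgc
Gla (alpha-galactosidase), chrX:134601217-134601242, minus strand: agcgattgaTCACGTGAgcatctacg
Atp6v1a (pump subunit), chr16:44139375-44139400, minus strand: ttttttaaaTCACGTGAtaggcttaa
Atp6v0d1 (pump subunit), chr8:105566052-105566077, minus strand: ctactgcggTCACGTGAgacgcggtg
Mcoln1 (calcium channel), chr8:3500464-3500489, plus strand: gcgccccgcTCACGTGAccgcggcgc
Lamp1 (membrane glycoprotein), chr8:13159090-13159115, plus strand: ggcaagatatCACGTGgtccagcgcc
Lgmn (legumain), chr12:102439126-102439151, minus strand: gaatgtctgtCACGTGgtccatttta
Glb1 (beta-galactosidase), chr9:114401020-114401045, plus strand: gcttctgagtCACGTGgcctacagag
Ctsl (cathepsin L), chr13:64370741-64370766, minus strand: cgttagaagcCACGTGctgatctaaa
Lamp1 held 4 CACGTG matches within its window, and Ctsa and Gla each held 2 TCACGTGA matches. A match describes the letters of this window only. No window was found for Ctsb, Ctsh, Asah1, Npc1, Atp6v0d2 and Atp6v1b2.

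Macrophages gave the largest part of their UMIs to the 37 genes in every group in which they were measured. The members made up 2.76% ± 0.210 (SD, n = 3 plates) of macrophage UMIs in sham day 1. IR day 1 macrophages gave 2.27% ± 0.622 (n = 9), IR day 3 macrophages 6.43% ± 1.89 (n = 6) and MI day 3 macrophages 4.31% ± 0.434 (n = 5). The single IR day 14 plate, with 6 macrophages, gave 3.46%. The IR day 3 plates, at 4.07% to 8.61%, lay above every IR day 1 plate, at 1.52% to 3.50%. Fibroblasts ranged from 0.475% ± 0.0258 (n = 5) in IR day 1 to 0.8292% ± 0.265 (n = 4) in IR day 3, apart from a single sham day 14 plate at 1.01%. Endothelial cells gave 0.536% ± 0.101 (n = 4) in sham day 1, 0.591% ± 0.136 (n = 4) in sham day 14, 0.848% ± 0.155 (n = 5) in MI day 3, and 0.479% ± 0.180 (n = 8) and 0.432% ± 0.0539 (n = 3) at days 1 and 14 after IR. Their 3 IR day 3 plates were far apart, at 0.556%, 3.40% and 4.79%. Cardiomyocytes gave 0.881% ± 0.131 (n = 4) in sham day 1 and 0.788% ± 0.0778 (n = 5) in sham day 14. After IR they gave 0.610% ± 0.357 (n = 8) at day 1, 1.02% ± 0.614 (n = 5) at day 3 and 0.943% ± 0.0163 (n = 3) at day 14. Their single MI plate gave 0.184%. With the repeat gene Rn45s kept in the totals, the cardiomyocyte share at IR day 1 was 0.400%. Since classes came from clustering, these levels are a description without a test, as plotted per plate.

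**Figure D1:**
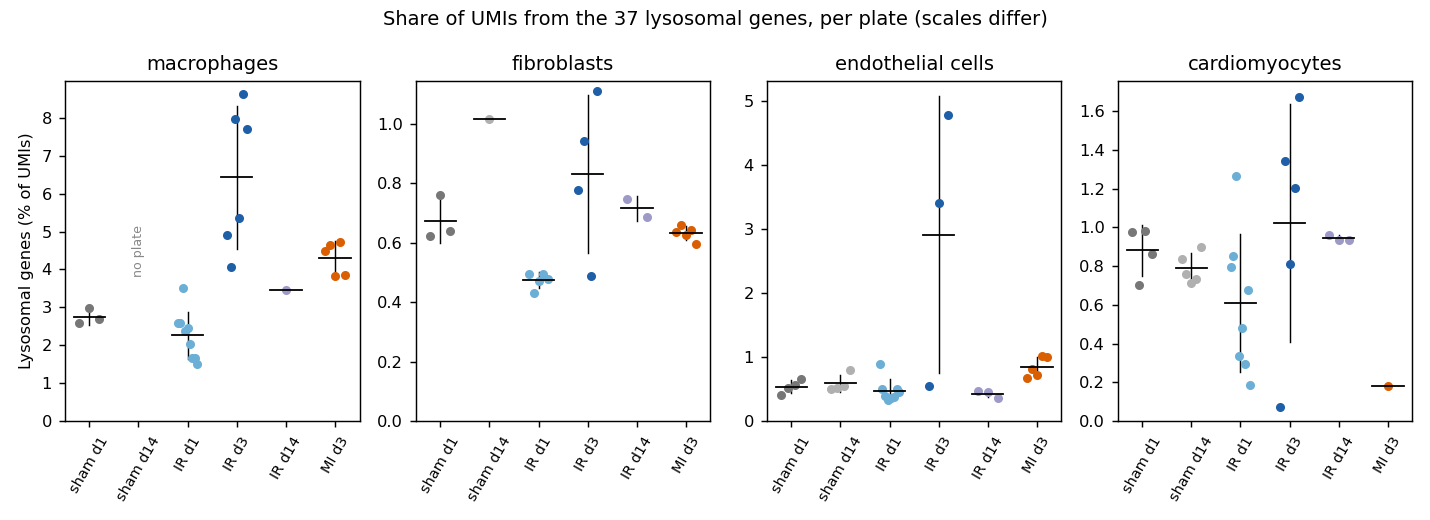
Share of UMIs taken by the 37 genes (percent, vertical axis) on each plate, by cell class and group (horizontal axis). Each point is 1 plate with at least 5 cells of the class the bar marks the group mean and the vertical line its SD, and the macrophage plates of IR day 3 reach 8.61%.

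A few genes carried these shares. Ctsb, the cysteine protease cathepsin B, held 30.7% of the member UMIs of IR day 3 macrophages, 16.8% in IR day 1, 18.9% in sham day 1 and 23.4% in MI. In sham day 1 cardiomyocytes the leading genes were Ctsd with 23.9%, Psap with 19.6% and Lamp1 with 12.6%. Fibroblasts of IR day 1 led with Cd63, a tetraspanin of late endosomes, at 26.8%. Gene by gene, mean CPM was highest in macrophages for 31 of the 36 members with UMIs in sham day 1 and 34 of 37 in MI, and after IR for 31 of 36 at day 1 and 33 of 36 at day 3. Every macrophage plate lay above every plate of the other classes for 18 members in sham day 1, 31 in MI, and 9 and 8 at days 1 and 3 after IR. Over all genes with UMIs, 23.5% were highest in macrophages in sham day 1, 26.9% in MI, and 21.9% and 26.6% at days 1 and 3 after IR, and 3.5%, 5.47%, 0.802% and 0.872% were so without overlap. The number of plates also sets such counts, since macrophages had 3 plates in sham day 1, 5 in MI, and 9 and 6 after IR. Genes outside this order included Ctsk, Cd63 and Ctsd. Ctsk, the collagen-degrading cathepsin K, was highest in fibroblasts in all 4 of these groups, with means of 36.1 CPM in sham day 1, 65.1 in MI, and 63.3 and 144 at days 1 and 3 after IR. Cd63 was highest in fibroblasts in sham day 1 (708 CPM), IR day 1 (1324 CPM) and MI (1238 CPM), and in MI without overlap with any other class. Ctsd was highest in cardiomyocytes in sham day 1, at 2047 CPM against 1577 CPM in macrophages, with overlapping plates.

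Macrophages of IR day 3 differed most widely from those of IR day 1. Of 34 members tested, 26 were higher and 1 was lower at day 3 (edgeR quasi-likelihood test, Benjamini-Hochberg adjusted p under 0.05, 6 against 9 plates), whereas 25.7% of all 5275 genes tested passed in either direction, 12.6% as higher. The members' median log2 fold change was 1.22, against -0.00 over all genes. Atp6v0c, Mcoln1 and Tfeb did not pass the filter on low counts in macrophages. The count stayed between 23 and 31 as each plate was left out in turn, and DESeq2 called 28 higher and 1 lower.

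Among the cysteine proteases, Ctsb (chromosome 14, 63122462 to 63145923, GRCm38) ranged from 1266 to 7411 CPM on the IR day 1 plates, with a median of 3514 CPM. On the IR day 3 plates Ctsb ranged from 8491 to 25367 CPM, with a median of 20012 CPM. These ranges did not overlap, and the log2 fold change of Ctsb was 2.44 ± 0.31 (SE, adjusted p = 9.64e-07, edgeR). Ctsb shares 774 exon bases with Fdft1, 500 of them in its last 500 bases, and without the strand of counting their reads cannot be told apart. Ctss (chromosome 3, 95526786 to 95556403), the cathepsin S that trims the invariant chain of MHC class II, was at 1068, 1605 and 2452 CPM (lowest, median, highest) in IR day 1. In IR day 3 Ctss was at 3316, 5914 and 6981 CPM, again without overlap, and its log2 fold change was 1.68 ± 0.22 (adjusted p = 1.05e-06, edgeR). Ctsh, an aminopeptidase, Ctsl, an endopeptidase, and Lgmn, which cleaves after asparagine and activates cathepsins, were higher by 0.95, 1.16 and 1.09 on the log2 scale (adjusted p = 0.00115, 0.0199 and 0.0119, edgeR). Ctsl lost its call without IR day 3 replicate 4 or 7, with log2 fold changes of 0.84 and 0.95. Lgmn lost its call at 10 cells per plate (0.91, adjusted p = 0.0718) and with the replicate block (0.85, adjusted p = 0.0757, edgeR), and Ctsl with the block (0.90, adjusted p = 0.138, edgeR). Ctsc, which activates granule proteases, and Ctsz, a carboxypeptidase, did not pass, at 0.33 ± 0.26 and 0.34 ± 0.22 (adjusted p = 0.377 and 0.283, edgeR).

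Ctsk was at 0 CPM on 5 of the 9 IR day 1 plates and at 9.50, 10.2 and 16.1 CPM on 3 others, whereas IR day 1 replicate 9 stood apart at 207 CPM. On the IR day 3 plates Ctsk was at 0, 34.5, 52.6, 24.8, 62.0 and 60.6 CPM. The groups overlapped through these 2 extreme plates and the log2 fold change of 1.73 ± 0.68 did not pass (adjusted p = 0.0574, edgeR).

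The other proteases rose together. Ctsd (chromosome 7, 142375911 to 142388038), the aspartic protease cathepsin D, was at 437, 1099 and 2693 CPM (lowest, median, highest) in IR day 1 and at 1174, 5246 and 10388 CPM in IR day 3. The lowest day 3 plate, replicate 3, lay within the day 1 range, and the log2 fold change was 2.07 ± 0.33 (adjusted p = 2.06e-05, edgeR). Ctsa, which also protects the galactosidase complex, was higher by 1.04 ± 0.24 and the peptidase gene Tpp1 by 1.22 ± 0.27 (adjusted p = 0.00152 and 0.00104, edgeR). Ctsa overlaps 495 exon bases of Pltp, 5 of them in its last 500, and Pltp was higher as well (1.61, adjusted p = 0.0254, edgeR).

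Of the glycosidases and lipases, Gusb (chromosome 5, 129989011 to 130003049), the beta-glucuronidase, had the smallest adjusted p of all members. Gusb was at 215, 321 and 450 CPM (lowest, median, highest) in IR day 1 and at 619, 990 and 1415 CPM in IR day 3, without overlap, and its log2 fold change was 1.59 ± 0.19 (adjusted p = 5.47e-07, edgeR). Hexa (chromosome 9, 59539540 to 59565109), the hexosaminidase alpha subunit that degrades gangliosides, was at 104, 243 and 534 CPM in IR day 1 and at 639, 1160 and 1549 CPM in IR day 3, also without overlap. The log2 fold change of Hexa was 1.97 ± 0.28 (adjusted p = 3.37e-06, edgeR). Lipa, the acid lipase that frees cholesterol from its esters, was higher by 1.88, Gla by 1.84, Glb1 by 1.70 and the mannosidase gene Man2b1 by 1.43 on the log2 scale (adjusted p = 3.21e-06, 0.000427, 0.00212 and 0.00177, edgeR). The sialidase gene Neu1 and the ceramidase gene Asah1 did not pass, at 0.58 and 0.56 (adjusted p = 0.086 and 0.06, edgeR).

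Ppt1 (chromosome 4, 122836242 to 122859175), a thioesterase that removes palmitate from proteins, went the other way. It was at 465 to 1062 CPM on the IR day 1 plates (median 601) and at 196 to 643 CPM in IR day 3 (median 422), with overlap, and its log2 fold change was -0.75 ± 0.23 (adjusted p = 0.0163, edgeR). The call was lost without IR day 3 replicate 6, at -0.61, and without the filter on low counts, at -0.68 (adjusted p = 0.0687, edgeR). Ppt1 shares 32 exon bases with Cap1, whose log2 fold change of -0.83 in this comparison did not pass the test.

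Cofactors and membrane proteins moved with the enzymes. Psap (chromosome 10, 60277627 to 60302597), the precursor of the saposins that lift lipids to their hydrolases, was at 1533, 2296 and 3723 CPM in IR day 1 and at 3037, 6354 and 11927 CPM in IR day 3. The lowest day 3 plate, again replicate 3, lay within the day 1 range, and the log2 fold change was 1.48 ± 0.27 (adjusted p = 0.000114, edgeR). The progranulin gene Grn was higher by 1.34 ± 0.25 and the sterol carriers Npc2 and Npc1 by 1.25 ± 0.23 and 0.84 ± 0.28 (adjusted p = 0.000148, 0.000136 and 0.0255, edgeR). Lamp1 (chromosome 8, 13159161 to 13175338), a main glycoprotein of the lysosomal wall, was at 920, 1297 and 1578 CPM in IR day 1 and at 2301, 2995 and 3893 CPM in IR day 3, without overlap. Its log2 fold change was 1.22 ± 0.19 (adjusted p = 1.25e-05, edgeR). Cd68 (chromosome 11, 69664213 to 69666153), the macrophage sialomucin, was at 317, 409 and 801 CPM in IR day 1 and at 841, 1330 and 2437 CPM in IR day 3, also without overlap, with a log2 fold change of 1.55 ± 0.26 (adjusted p = 4.6e-05, edgeR). Cd63, Lamp2 and Laptm5, a transmembrane protein of blood cells, were higher by 0.83, 0.69 and 0.60 (adjusted p = 0.0162, 0.0254 and 0.0225, edgeR). These 3 calls, and that of Npc1, each rested on single plates. Cd63 was lost without IR day 3 replicate 4, 6 or 7 (0.71, 0.72 and 0.73), Laptm5 without IR day 3 replicate 1 (0.48), Lamp2 without IR day 1 replicate 4 or 9 or IR day 3 replicate 4, 6 or 7 (0.56 to 0.68), and Npc1 without IR day 1 replicate 4 or 7 or IR day 3 replicate 4 or 7 (0.62 to 0.82). With the replicate block Cd63 (0.59), Lamp2 (0.60), Laptm5 (0.51) and Npc1 (0.95) also lost their calls (adjusted p = 0.155, 0.146, 0.123 and 0.104, edgeR), as did Lamp2 (0.48) and Laptm5 (0.41) at 10 cells per plate (adjusted p = 0.108 and 0.116, edgeR).

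The V-ATPase genes gave the largest fold change. Atp6v0d2, a pump subunit best known from osteoclasts and macrophages, was at 0 CPM on 4 of 9 IR day 1 plates and at 10.6 to 47.5 CPM on the others. In IR day 3 Atp6v0d2 was at 0, 414, 313, 49.5, 165 and 242 CPM, so that 5 of 6 plates lay above every day 1 plate and replicate 1 had none. Its log2 fold change was 3.44 ± 0.51 (adjusted p = 7.19e-06, edgeR). The subunits of the sector that hydrolyses ATP, Atp6v1a and Atp6v1b2, were higher by 1.42 ± 0.23 and 1.03 ± 0.26 (adjusted p = 2.77e-05 and 0.00284, edgeR; Atp6v1b2 0.76 and 0.0811 with the replicate block), while Atp6v0d1 and Atp6ap1 did not pass, at 0.61 and 0.54 (adjusted p = 0.125 and 0.0712). Atp6v0c had 1 UMI in all 4 classes together. Genes with near-identical copies can lose their reads in counting, so its level is uncertain.

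Mcoln1, a calcium channel of the lysosomal membrane, was at 0, 24.1 and 69.4 CPM (lowest, median, highest) in IR day 1 macrophages and at 24.7, 35.0 and 57.6 CPM in IR day 3. Tfeb was at 0, 21.2 and 46.0 CPM in IR day 1 and at 0, 32.6 and 38.5 CPM in IR day 3. In sham day 1 Mcoln1 was at 0, 69.5 and 30.5 CPM and Tfeb at 15.9, 69.5 and 61.0 CPM. The groups overlapped for both genes, and at this depth neither was tested in macrophages. The MI plates, which were deeper, gave 34.5 to 54.3 CPM of Mcoln1 and 18.9 to 30.1 CPM of Tfeb.

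**Figure D2:**
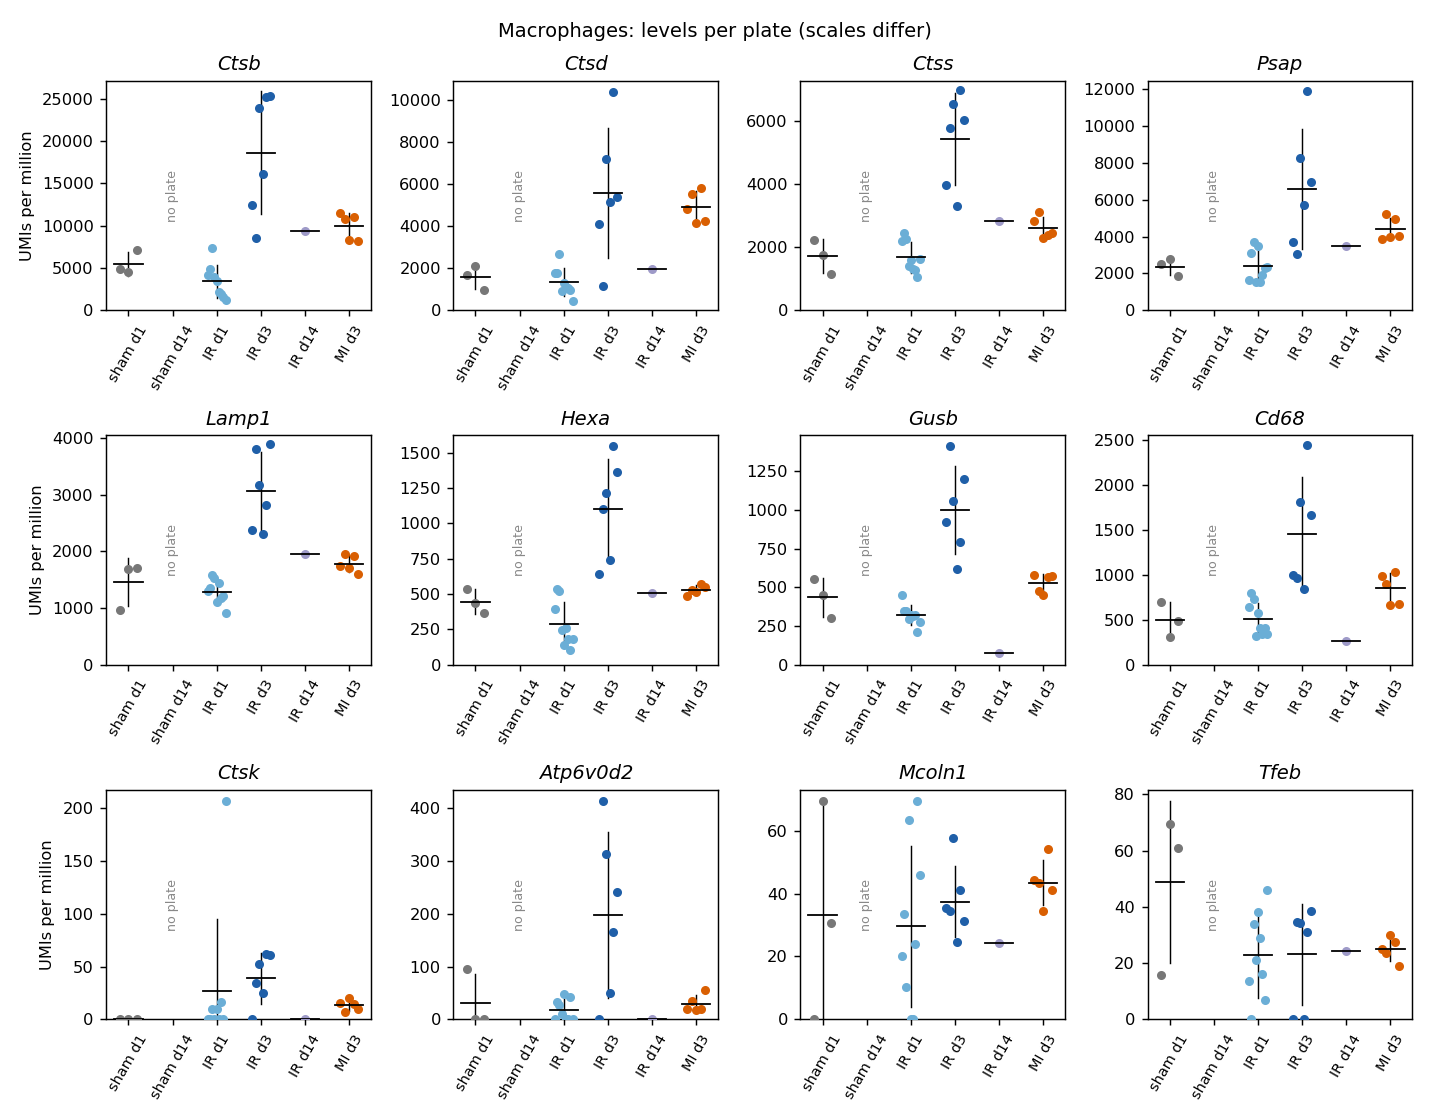
Level in macrophages (CPM, vertical axis from 0, scales differ) of 12 members on each plate, by group (horizontal axis). Each point is 1 plate, the bar is the group mean and the line its SD, and Ctsb, Ctss, Gusb, Hexa, Lamp1 and Cd68 lie higher on every IR day 3 plate than on any IR day 1 plate.

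Other genes of the lysosome were counted from a list chosen beside the members. Of 55 tested in macrophages, 22 were higher and 1 was lower in IR day 3 than in IR day 1, with a median log2 fold change of 0.58. Hydrolases led with 13 of 20 higher, among them the sulfatase gene Arsb (3.80) and the carboxypeptidase gene Scpep1 (1.97), with adjusted p = 9.8e-05 and 6.25e-06 (edgeR). The membrane glycoprotein gene Gpnmb was higher by 6.01 and the pump accessory gene Atp6ap2 by 1.55 (adjusted p = 1.04e-07 and 1.39e-06, edgeR). The lower gene was Tfec, a transcription factor of the Tfeb family, at -1.78 (adjusted p = 0.00263, edgeR). Of the 5 Ragulator genes, which dock nutrient signalling on the lysosome, none passed.

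Set against sham day 1, IR day 3 macrophages had 13 members higher and 1 lower of 34 (6 against 3 plates), with 4.64% of all genes passing in either direction and 1.82% as higher. The median log2 fold change of the members was 1.06, against 0.07 over all genes. This comparison uses the same IR day 3 plates as the one with IR day 1. The pump subunits Atp6v1a and Atp6v1b2 changed by 2.15 ± 0.38 and 1.90 ± 0.43 (adjusted p = 0.000655 and 0.00766, edgeR). Ctss, at 2236, 1756 and 1160 CPM on the sham plates, was below every IR day 3 plate (1.70 ± 0.32, adjusted p = 0.00141). Ctsb, at 4838, 4571 and 7111 CPM in sham, was also below every IR day 3 plate (1.82 ± 0.45, adjusted p = 0.0162). The sham plates gave Gusb at 555, 452 and 305 CPM and Lamp1 at 968, 1686 and 1709 CPM, below all IR day 3 plates for both genes (1.19 and 1.10, adjusted p = 0.0129 and 0.0138). Ppt1 was lower again (-1.10 ± 0.30, adjusted p = 0.0321, edgeR).

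Sham macrophages were few, with 21 cells, and the count of 14 calls fell to 4 without sham day 1 replicate 2. Without any single plate only the calls of Atp6v1a and Ctss were never lost. Lamp1 was lost without sham day 1 replicate 2 (0.83), Ctsb without replicate 2 or 3 (1.69 and 1.67), Cd68 without replicate 3 or 4 (1.34 and 1.54), Gusb without replicate 3 or 4 (1.17 and 0.93) and Atp6v1b2 without replicate 2 or 4 (1.69 and 1.66). Calls were lost without any 1 of the 3 sham plates for Psap (1.32 to 1.64), Hexa (1.18 to 1.49), Ctsd (1.55 to 2.12), Grn (0.89 to 1.39) and Ppt1 (-1.22 to -1.03), without replicate 2 or 4 for Npc2 (0.90 and 1.13) and without replicate 2 or 3 for Ctsh (0.75 and 1.15). Without IR day 3 replicate 4, 6 or 7 the calls of Ctsh, Npc2, Grn and Hexa were lost too (1.06 to 1.31), as were those of Ctsd without replicate 6 (1.58) and Ppt1 without replicate 6 or 7 (-0.95 and -1.11). With the replicate block 9 of the 14 calls were lost, among them Gusb (1.20), Lamp1 (1.14) and Ppt1 (-1.15), with adjusted p = 0.0714, 0.0559 and 0.0762 (edgeR). Ppt1 was also lost without the filter on low counts (-0.91, adjusted p = 0.167, edgeR). Of the other lysosome genes 4 were higher, among them the pump subunit gene Atp6v1c1 at 1.83 (adjusted p = 0.00928, edgeR).

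MI day 3 macrophages gave less to the members than IR day 3 macrophages. Of 34 members, 6 were lower and 1 higher in MI (5 against 6 plates), with 9.29% of all genes passing in either direction and 4.06% as lower. The median log2 fold change of the members was -0.49, against -0.00 over all genes, and 32 of 34 had a negative sign. This comparison shares the IR day 3 plates with those above. Atp6v0d2 was at 19.9, 34.0, 17.6, 18.5 and 55.6 CPM in MI, and its log2 fold change was -3.01 ± 0.40 (adjusted p = 4.69e-06, edgeR). All MI plates but 1 lay below the lowest non-zero IR day 3 plate. Ctss was at 2835, 3111, 2305, 2398 and 2469 CPM in MI, below every IR day 3 plate (-1.03 ± 0.25, adjusted p = 0.00727, edgeR). Gusb, at 578, 477, 448, 565 and 574 CPM, and Hexa, at 487, 526, 514, 571 and 547 CPM, were also below every IR day 3 plate, with log2 fold changes of -0.89 ± 0.21 and -1.09 ± 0.30 (adjusted p = 0.00666 and 0.0196, edgeR). Lamp1, at 1748, 1952, 1700, 1920 and 1604 CPM, was below every IR day 3 plate too (-0.74 ± 0.21, adjusted p = 0.0243, edgeR). Ctsk was at 15.5, 6.79, 19.8, 14.7 and 10.01 CPM in MI (-1.93 ± 0.54, adjusted p = 0.0205, edgeR). Ppt1 stood alone as higher in MI, at 733 to 1076 CPM against 196 to 643 CPM, without overlap (1.17 ± 0.25, adjusted p = 0.0023, edgeR).

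Several genes that were higher in IR day 3 than in IR day 1 did not pass here. Ctsd was at 4788, 5535, 4126, 5830 and 4255 CPM in MI, within the IR day 3 range (-0.20 ± 0.37, adjusted p = 0.813, edgeR). Psap was at 3884, 5213, 4006, 4960 and 4030 CPM in MI (-0.60 ± 0.31, adjusted p = 0.244, edgeR). Ctsb was at 11515, 10751, 8295, 11063 and 8201 CPM and Cd68 at 984, 893, 669, 1032 and 670 CPM, with log2 fold changes of -0.90 and -0.81 (adjusted p = 0.11 and 0.0758, edgeR). The count of 7 calls was 4 without IR day 3 replicate 4 or 7 or MI replicate 1, 2 or 4, and 12 without IR day 3 replicate 3. Leaving out a plate never ended the calls of Atp6v0d2, Ppt1, Gusb and Ctss, but Gusb lost its call without the filter on low counts (-0.72, adjusted p = 0.109) and with the replicate block (-0.87, adjusted p = 0.0591, edgeR). Lamp1 lost its call in these settings too (-0.57 and -0.63, adjusted p = 0.195 and 0.206), Hexa with the block (-1.03, adjusted p = 0.0681) and Ctsk with the block and in DESeq2 (-1.19 and -1.71, adjusted p = 0.47 and 0.246). Hexa and Lamp1 each lost theirs without 7 of the 11 plates, with log2 fold changes of -0.91 to -1.07 and -0.61 to -0.74, and Ctsk without 6 (-1.69 to -1.93). Those plates include IR day 3 replicates 4 and 7 and MI replicates 1, 2 and 4 for all 3 genes. Of the other lysosome genes 8 were lower and none was higher, among them Atp6ap2 (-0.92), Gpnmb (-2.49), Gaa, the acid glucosidase (-1.15), and the sorting receptor gene Sort1 (-1.15), with adjusted p = 0.00415, 0.00957, 0.0121 and 0.0178 (edgeR).

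The mix of macrophage clusters differed between these groups. The first had Ccr2 and Saa3 among its leading genes, another was led by Lyve1, Cd209f and Cd163, and the last by Gpnmb, Ms4a7 and Fabp5, with the members Cd68, Ctss, Atp6v0d2 and Ctsb among its 10 leading genes although they were not used in clustering. The Gpnmb cluster held 72.7% of 183 macrophages in IR day 3, 0.935% of 107 in IR day 1 and 2.88% of 278 in MI. The Ccr2 cluster held 79.4%, 13.1% and 88.5% of macrophages in IR day 1, IR day 3 and MI. In sham day 1 the Lyve1 cluster held 61.9% of 21 macrophages, the Ccr2 cluster 38.1% and the Gpnmb cluster 0. Over plates with at least 3 cells of a cluster, the members took 5.38% to 8.63% of UMIs in the Gpnmb cluster on 6 IR day 3 plates. In the Ccr2 cluster they took 1.61% to 3.66% on 9 IR day 1 plates, 3.66% to 5.65% on 4 IR day 3 plates and 3.55% to 4.76% on 5 MI plates. The Lyve1 cluster gave 1.84% to 2.38% on 3 sham day 1 plates, 1.67% to 2.94% on 4 IR day 1 plates, 3.43% to 4.44% on 3 IR day 3 plates and 3.55% to 5.19% on 4 MI plates. Within these 2 clusters the IR day 3 and MI ranges overlapped. Over all UMIs pooled, the share was 4.31% in MI and 3.92% in IR day 3 in the Ccr2 cluster, and 4.47% and 3.93% in the Lyve1 cluster. Pooling gives large plates more weight. In the Ccr2 cluster IR day 3 replicate 4, with 11 of 24 cells, had the lowest share, 3.66%, and the other plates had 4.22% to 5.65%. In the Gpnmb cluster the pooled share was lower in MI, at 6.28% on 8 cells, than in IR day 3, at 8.43%. Markers of other cell types and the depth differed between the groups too. In the macrophage sums cardiomyocyte markers ran from 1285 to 2319 CPM in sham day 1, from 97.1 to 952 CPM and 603 to 2926 CPM at days 1 and 3 after IR, and from 130 to 520 CPM in MI. Neutrophil markers ran from 174 to 427, 127 to 2436, 34.5 to 125 and 383 to 806 CPM in the same order, and fibroblast markers from 349 to 539, 209 to 951, 461 to 1865 and 1047 to 2370 CPM. The median macrophage had 5756 UMIs in sham day 1, 9103 and 8050 at days 1 and 3 after IR, and 22846 in MI, with a median mitochondrial share of 17.1%, 17.4%, 13.1% and 7.58% (copied wells included). The part of the cluster mix and of these values in the differences between groups was not tested.

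**Figure D3:**
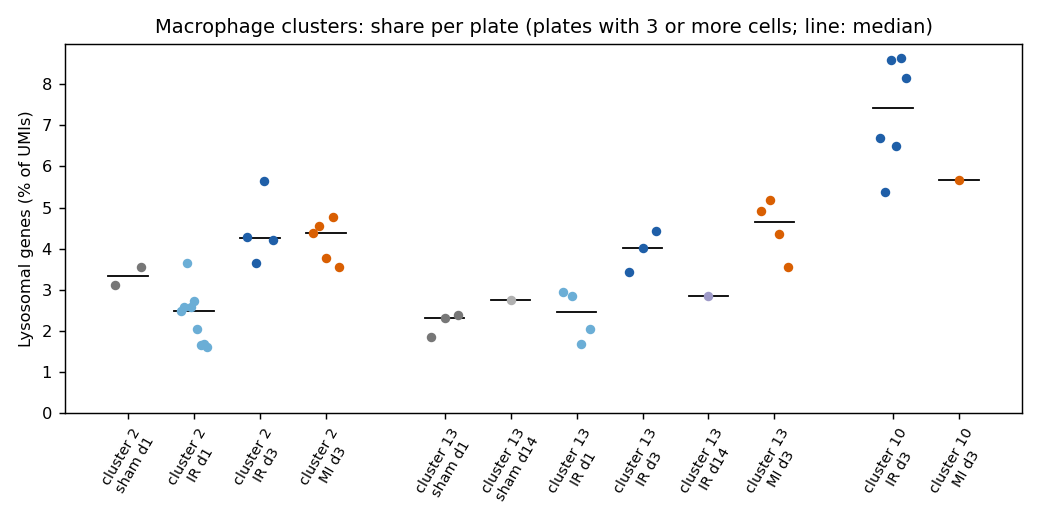
Share of UMIs taken by the 37 genes (percent, vertical axis) in each of the 3 macrophage clusters, by group, with 1 point per plate with at least 3 cells of the cluster and a line at the median. Cluster 2 is the Ccr2 cluster, 13 the Lyve1 cluster and 10 the Gpnmb cluster, and the Gpnmb cluster of IR day 3 lies highest, at 5.38% to 8.63%, and was nearly empty in IR day 1.

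Fibroblasts of MI day 3 had 4 members lower than those of IR day 3, a share near that of all genes. Of 31 tested, 4 were lower and none higher (5 against 4 plates), with 11.1% of all genes passing in either direction and 6.98% as lower, and the median log2 fold change was -0.68 against 0.01 over all genes. Atp6v0c, Atp6v0d2, Gla, Glb1, Neu1 and Tfeb did not pass the filter on low counts in fibroblasts. Man2b1 was at 46.9 to 54.1 CPM in MI and at 113 to 177 CPM in IR day 3, without overlap (-1.40 ± 0.29, adjusted p = 0.0017, edgeR). Psap was at 266, 300, 271, 302 and 275 CPM in MI and at 743, 530, 328 and 712 CPM in IR day 3, also without overlap (-1.07 ± 0.29, adjusted p = 0.0162, edgeR). Hexa was at 69.2, 75.8, 66.8, 69.6 and 110 CPM in MI and at 227, 142, 50.5 and 173 CPM in IR day 3, with overlap (-1.01 ± 0.29, adjusted p = 0.0251, edgeR). Tpp1 was lower as well (-1.37 ± 0.38, adjusted p = 0.0189, edgeR). The count fell to 1 without IR day 3 replicate 7, where Psap and Tpp1 were at -0.88 and -0.99, and rose to 9 without replicate 5. All 4 calls were lost with the replicate block, Man2b1 at -1.17, Psap at -0.81, Hexa at -0.78 and Tpp1 at -1.19 (adjusted p = 0.211, 0.245, 0.425 and 0.273, edgeR), and those of Hexa and Psap without the filter on low counts (-0.80 and -0.85, adjusted p = 0.152 and 0.096, edgeR). Tpp1 was also lost without IR day 3 replicate 4 (-1.24), and Hexa without 7 of the 9 plates, among them IR day 3 replicates 3, 4 and 7 and MI replicates 1 to 4 (-0.87 to -0.996). Macrophage markers summed to 50.5 to 719 CPM on the IR day 3 fibroblast plates and to 351 to 463 CPM in MI. Without the fibroblasts whose macrophage markers exceeded 0.1% of UMIs, an alternative chosen after seeing the data, Man2b1 (-1.21), Psap (-0.86) and Tpp1 (-1.34) passed, 3 of 29 tested, which is near the 9.67% of all genes. Cardiomyocyte markers summed to 1217 to 22563 CPM on the IR day 3 fibroblast plates and to 25.05 to 185 CPM in MI. When cells with over 1% of UMIs from another class's markers were left out, Man2b1 (-0.88, adjusted p = 0.129), Psap (-0.57, adjusted p = 0.312) and Tpp1 (-1.11, adjusted p = 0.1, edgeR) lost their calls.

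The fibroblasts of these groups also sat in different clusters. A cluster led by Htra3 and Pi16 held 66 of 79 fibroblasts in IR day 3 and 1 of 138 in MI, and a cluster led by Timp1 and Cxcl5 held 13 and 137. In the Timp1 cluster the members took 0.675% to 0.741% of UMIs on 3 IR day 3 plates and 0.595% to 0.658% on 5 MI plates, and in the Pi16 cluster 0.711% to 1.35% on 4 IR day 3 plates. The median cell had 2760 UMIs in IR day 3 and 44332 in MI, and mitochondrial UMIs made up a median of 22.9% and 7.15%. The part of these differences in the lower members was not tested.

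Other members of interest in fibroblasts did not pass this test. Ctsb was at 842, 888, 740, 808 and 710 CPM in MI and at 660, 1863, 379 and 2238 CPM in IR day 3 (-0.81 ± 0.38, adjusted p = 0.178, edgeR). Lamp1 was at 547, 583, 572, 579 and 484 CPM in MI and at 1321, 813, 454 and 1195 CPM in IR day 3 (-0.81 ± 0.29, adjusted p = 0.0691, edgeR). Ctsk was at 76.9, 48.8, 66.8, 75.8 and 57.3 CPM in MI and at 268, 137, 126 and 43.2 CPM in IR day 3 (-1.001 ± 0.45, adjusted p = 0.157, edgeR). For all 3 the IR day 3 plates were spread on both sides of the MI plates. Of 48 other lysosome genes 7 were lower in MI, among them Gpnmb (-2.76), the cathepsin O gene Ctso (-2.16), the sphingomyelinase gene Smpd1 (-1.67) and Gaa (-1.79), with adjusted p = 0.000422, 0.00103, 0.00172 and 0.0026 (edgeR). Whether macrophages and fibroblasts differed in their MI to IR day 3 change was tested in a joint fit, in which none of 35 members passed while 1.1% of all genes did. In that fit 1 member had an unadjusted p under 0.05, DESeq2 called 0, and the median difference of the members was 0.21 on the log2 scale.

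Between IR day 3 and sham, fibroblasts had no member past the threshold (edgeR, 4 against 4 plates, 31 tested, background 1.19%). In that comparison 3 members had an unadjusted p under 0.05, DESeq2 called 0, and the median log2 fold change was 0.51 against 0.38 over all genes. Sham day 14 had 1 plate, replicate 8, with 8 cells, and it weighed as much as the 3 sham day 1 plates together. Macrophage markers summed to 3680 CPM on it, against 0 to 89.4 CPM in sham day 1, and their part was not tested. Without sham day 14 replicate 8 the count was 1. Levels at IR day 1 were low for Hexa in fibroblasts, at 10.9, 11.2, 7.24, 17.1 and 0 CPM, against 134, 104 and 136 CPM in sham day 1, a difference given here without a test. Fibroblast markers summed to 6402 to 26121 CPM on those IR day 1 plates and to 61479 to 64984 CPM in sham day 1. The Timp1 cluster held 46 of 54 IR day 1 fibroblasts and 1 of 30 in sham day 1, and the part of this in the Hexa levels was not tested.

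Endothelial cells of IR day 3 showed the highest fold changes, carried by 2 of 3 plates, and macrophage markers on the IR day 3 plates had a median sum above that of the endothelial markers. Of 29 members tested, 26 were higher than in sham and none was lower (3 against 8 plates), with 11.2% of all genes passing in either direction and 6.57% as higher. The median log2 fold change was 2.17, against -0.06 over all genes. Atp6v0c, Atp6v0d2, Ctsk, Gla, Glb1, Mcoln1, Neu1 and Tfeb did not pass the filter in endothelial cells. Ctsb was at 758, 9618 and 14971 CPM on the IR day 3 plates and at 309, 511, 608, 754, 536, 632, 619 and 1104 CPM in sham (3.86 ± 0.42, adjusted p = 2.4e-07, edgeR). Ctss was at 0, 2719 and 4604 CPM in IR day 3 and at 0, 0, 49.6, 20.1, 0, 137, 23.8 and 235 CPM in sham (6.12 ± 0.77, adjusted p = 1.85e-06, edgeR). Cd68 was at 0, 792 and 851 CPM in IR day 3 and at 0 to 70.5 CPM in sham (6.28 ± 0.71, adjusted p = 2.79e-07, edgeR). In each case replicate 3, the plate with 7918 UMIs, lay within the sham range and replicates 4 and 7 above it. Lgmn was above sham on all 3 plates, at 253, 1170 and 989 CPM against 7.24 to 93.9 CPM (4.79 ± 0.48, adjusted p = 9.57e-08, edgeR). Its value on replicate 3 came from 2 UMIs only.

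Gusb, at 379, 437 and 940 CPM, was above sham on all 3 plates, against 30.1 to 165 CPM (3.10 ± 0.42, adjusted p = 6.58e-06, edgeR). Its value on replicate 3 came from 3 UMIs only. Lamp1 was at 1137, 1877 and 2869 CPM against 460 to 1151 CPM in sham, with replicate 3 inside that range (1.47 ± 0.29, adjusted p = 0.000667, edgeR). Hexa was at 126, 538 and 827 CPM against 28.9 to 192 CPM (2.88 ± 0.42, adjusted p = 1.81e-05, edgeR). Ctsd was at 126, 2722 and 2659 CPM against 82.5 to 619 CPM, and Psap at 253, 2923 and 3015 CPM against 407 to 1015 CPM (2.26 ± 0.49 and 1.55 ± 0.43, adjusted p = 0.00174 and 0.0158, edgeR). Atp6v0d2 was at 0, 20.7 and 130 CPM in IR day 3 and at 0 on every sham plate. Asah1, Atp6ap1 and Ppt1 did not pass, at 0.93, 0.35 and 0.10 (adjusted p = 0.264, 0.61 and 0.917, edgeR).

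Macrophage markers moved with these values. Their sum was 379 to 11048 CPM on the IR day 3 endothelial plates (median 7244), against 17.7 to 608 CPM in sham day 1 and 28.9 to 3992 CPM in sham day 14, and 21 of the 47 IR day 3 endothelial cells had macrophage markers above 0.1% of UMIs. The endothelial markers of this class summed to 5528 to 8462 CPM on those plates (median 6098), below the median of the macrophage markers, against 15047 to 20117 CPM in sham day 1 and 11554 to 15178 CPM in sham day 14. When such cells were left out of all groups, 2 of 26 members tested were higher, Ctsb (1.32, adjusted p = 0.00924) and Ctss (3.76, adjusted p = 0.0294, edgeR), beside 2.96% of all genes. In that setting 6 of the called members turned to a negative log2 fold change without passing, namely Psap (-0.84), Lamp1 (-0.11), Atp6v1a (-0.28), Atp6v0d1 (-1.57), Ctsh (-0.82) and Man2b1 (-0.49), while Gusb was at 1.72, Hexa at 0.33 and Ctsd at 0.23 without passing (adjusted p = 0.0772, 0.88 and 0.89, edgeR). With the replicate block Psap (1.43), Lamp1 (1.17) and Ctsd (2.01) also lost their calls (adjusted p = 0.171, 0.0806 and 0.0806, edgeR), as did Psap with sham day 14 alone (1.58, adjusted p = 0.0697, edgeR). Leaving out cells with over 1% of UMIs from another class's markers took the count of 26 to 11. Without the cells with macrophage markers above 0.1% of UMIs, 2 IR day 3 plates remained. Their member share was 0.793% ± 0.257 (n = 2), against 0.531% ± 0.0950 (n = 4) in sham day 1 and 0.506% ± 0.0441 (n = 4) in sham day 14. The endothelial clusters differed between the groups as well. A cluster led by Plvap held 26 of 47 endothelial cells in IR day 3, but 4 of 99 in sham day 1 and 3 of 77 in sham day 14, and the others sat in a cluster led by Cd300lg. In the Cd300lg cluster the members took 0.354% to 1.27% of UMIs on 3 IR day 3 plates, overlapping the 0.398% to 0.692% of the sham plates, and in the Plvap cluster 3.79% and 5.07% on 2 IR day 3 plates. Wells with 2 cells were not called, and how far macrophage RNA in these wells sets the endothelial values was not tested beyond this comparison. Fibroblast markers summed to 1572 to 2905 CPM on the IR day 3 plates, against 362 to 1236 CPM in sham day 1 and 412 to 976 CPM in sham day 14. The median mitochondrial share was 24.8% in IR day 3, against 40.4% and 44.7% in sham day 1 and day 14. The part of these differences was not tested.

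The count of 26 was 18 without IR day 3 replicate 7. Without 1 of replicates 4 and 7 the calls of Psap (1.35 and 1.24), Tpp1 (1.57 and 1.35), Lipa (1.56 and 1.44) and Atp6v0d1 (1.10 and 1.07) were lost, and so was Man2b1 (0.91 and 1.22). Replicate 4 decided Cd63 (1.82) and Ctsa (1.51), and replicate 7 decided Lamp1 (1.00), Lamp2 (0.97) and Npc1 (1.91). Man2b1 and Atp6v0d1 were also lost without 6 and 5 of the sham plates. Of 34 other lysosome genes 7 were higher, among them Cstb, an inhibitor of cysteine cathepsins (3.59, adjusted p = 2.79e-07, edgeR).

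**Figure D4:**
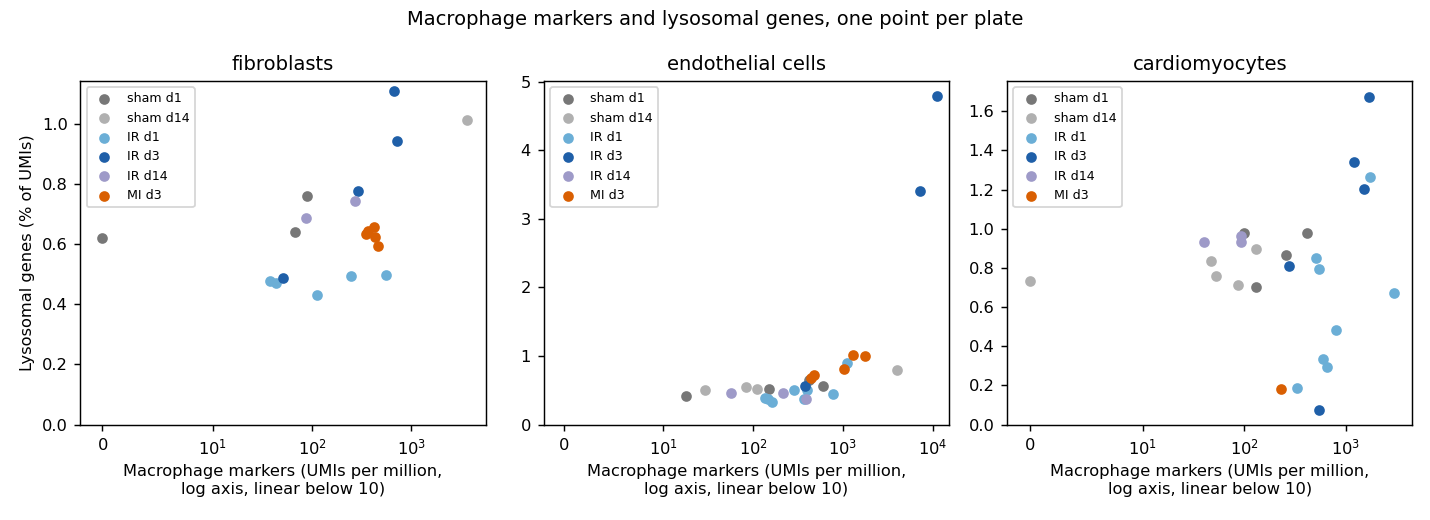
Share of UMIs taken by the 37 genes (percent, vertical axis) against the summed macrophage markers (CPM, horizontal axis) for each plate of endothelial cells, cardiomyocytes and fibroblasts, coloured by group. The endothelial plates of IR day 3 with the highest shares, 3.40% and 4.79%, also have high macrophage markers.

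MI day 3 endothelial cells had 7 of 29 members higher than sham and none lower (5 against 8 plates), a share below the 34.2% of all genes that passed in either direction and near the 17.8% that were higher than sham. The sham plates are those used for IR day 3. The median log2 fold change was 0.53, against 0.07 over all genes. Lgmn was at 74.5 to 501 CPM in MI (2.85 ± 0.47, adjusted p = 1.71e-05, edgeR). Ctsb, at 1485, 1470, 1869, 2567 and 1679 CPM, was above every sham plate (1.52 ± 0.38, adjusted p = 0.00191, edgeR). Ctss, at 44.0, 217, 149, 272 and 662 CPM, and Cd68, at 22.0, 22.4, 0, 80.1 and 145 CPM, overlapped sham (2.64 ± 0.76 and 2.41 ± 0.81, adjusted p = 0.00744 and 0.0211, edgeR). Cd63 and Ppt1 were higher by 1.83 ± 0.40 and 1.20 ± 0.30 (adjusted p = 0.000533 and 0.00212, edgeR), and Gusb, at 142, 195, 134, 169 and 32.3 CPM, by 0.98 ± 0.39 (adjusted p = 0.0487, edgeR). Gusb lost its call without 10 of the 13 plates (0.78 to 1.01), and Cd68 without MI replicate 4 (1.81) or sham day 14 replicate 1 or 5 (1.99 and 2.14). With sham day 1 alone as the control, Cd63 and Ppt1 lost their calls (0.89 and 0.73, adjusted p = 0.131 and 0.113), as did Gusb (1.21, adjusted p = 0.051, edgeR). With sham day 14 alone, Ctss (1.90), Cd68 (1.92) and Gusb (0.76) lost theirs (adjusted p = 0.17, 0.221 and 0.301, edgeR). Gusb was also lost with the replicate block (0.98, adjusted p = 0.0668, edgeR), and Gusb and Cd68 in DESeq2 (0.96 and 2.53, adjusted p = 0.0787 and 0.0702).

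Macrophage markers summed to 440 to 1744 CPM on the MI endothelial plates. With marker-bearing cells left out, 7 of 26 members were higher, namely Ctsb (1.57), Ctss (3.33), Cd63 (1.85), Gusb (1.48), Laptm5 (2.02), Lgmn (2.21) and Ppt1 (1.37), beside 34.1% of all genes. Of 55 MI endothelial cells 53 sat in the Plvap cluster, where the members took 0.679% to 1.02% of UMIs, against 7 of 176 sham cells. Cardiomyocyte markers summed to 46.4 to 2535 CPM on the MI endothelial plates, against 9325 to 35598 CPM in sham. Fibroblast markers summed to 879 to 4140 CPM on the MI plates (median 1647), against 362 to 1236 CPM in sham day 1 and 412 to 976 CPM in sham day 14. The median mitochondrial share was 10.4% in MI, against 40.4% and 44.7% in sham day 1 and day 14. The part of these differences in the 7 calls was not tested. Ctsk, outside the test, was at 44.0, 47.9, 29.8, 30.2 and 113 CPM in MI and at 0 to 28.4 CPM in sham. Of the other lysosome genes Cstb was higher (1.74), and Cst3, the cystatin C gene (-1.55), Smpd1 (-1.45) and Laptm4a (-0.70) were lower, with adjusted p = 0.000573, 0.000392, 0.00723 and 0.0153 (edgeR).

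No member passed in endothelial cells of IR day 1 against sham day 1 (edgeR, 8 against 4 plates, 29 tested), while 15.5% of all genes did. In that comparison 3 members had an unadjusted p under 0.05, DESeq2 called 0, and the median log2 fold change was -0.14 against -0.01 over all genes. Psap was at 48.7 to 852 CPM (median 317) in IR day 1 and at 407, 729, 980 and 1015 CPM in sham day 1 (-1.13 ± 0.42, adjusted p = 0.0652, edgeR). Without IR day 1 replicate 1, which had the highest member share of its group, the count was 2. With marker-bearing cells left out, Psap (-1.22, adjusted p = 0.00347) and Atp6ap1 (-0.84, adjusted p = 0.0382, edgeR) were lower, beside 14.7% of all genes. Psap was also a leading member in cardiomyocytes, and cardiomyocyte markers were lower on these plates too, with a median of 2245 CPM in IR day 1 and 13946 CPM in sham day 1, and the Plvap cluster held 32 of 71 cells. Their part was not tested. Cst3 was lower at day 1 too (-1.80, adjusted p = 0.000292, edgeR) and Cstb higher (1.62, adjusted p = 0.011, edgeR). At day 14, IR endothelial cells had no member past the threshold against sham day 14 (edgeR, 3 against 4 plates), nor any other gene (0% of 4263), with 1 member at an unadjusted p under 0.05 and 0 called by DESeq2.

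**Figure D5:**
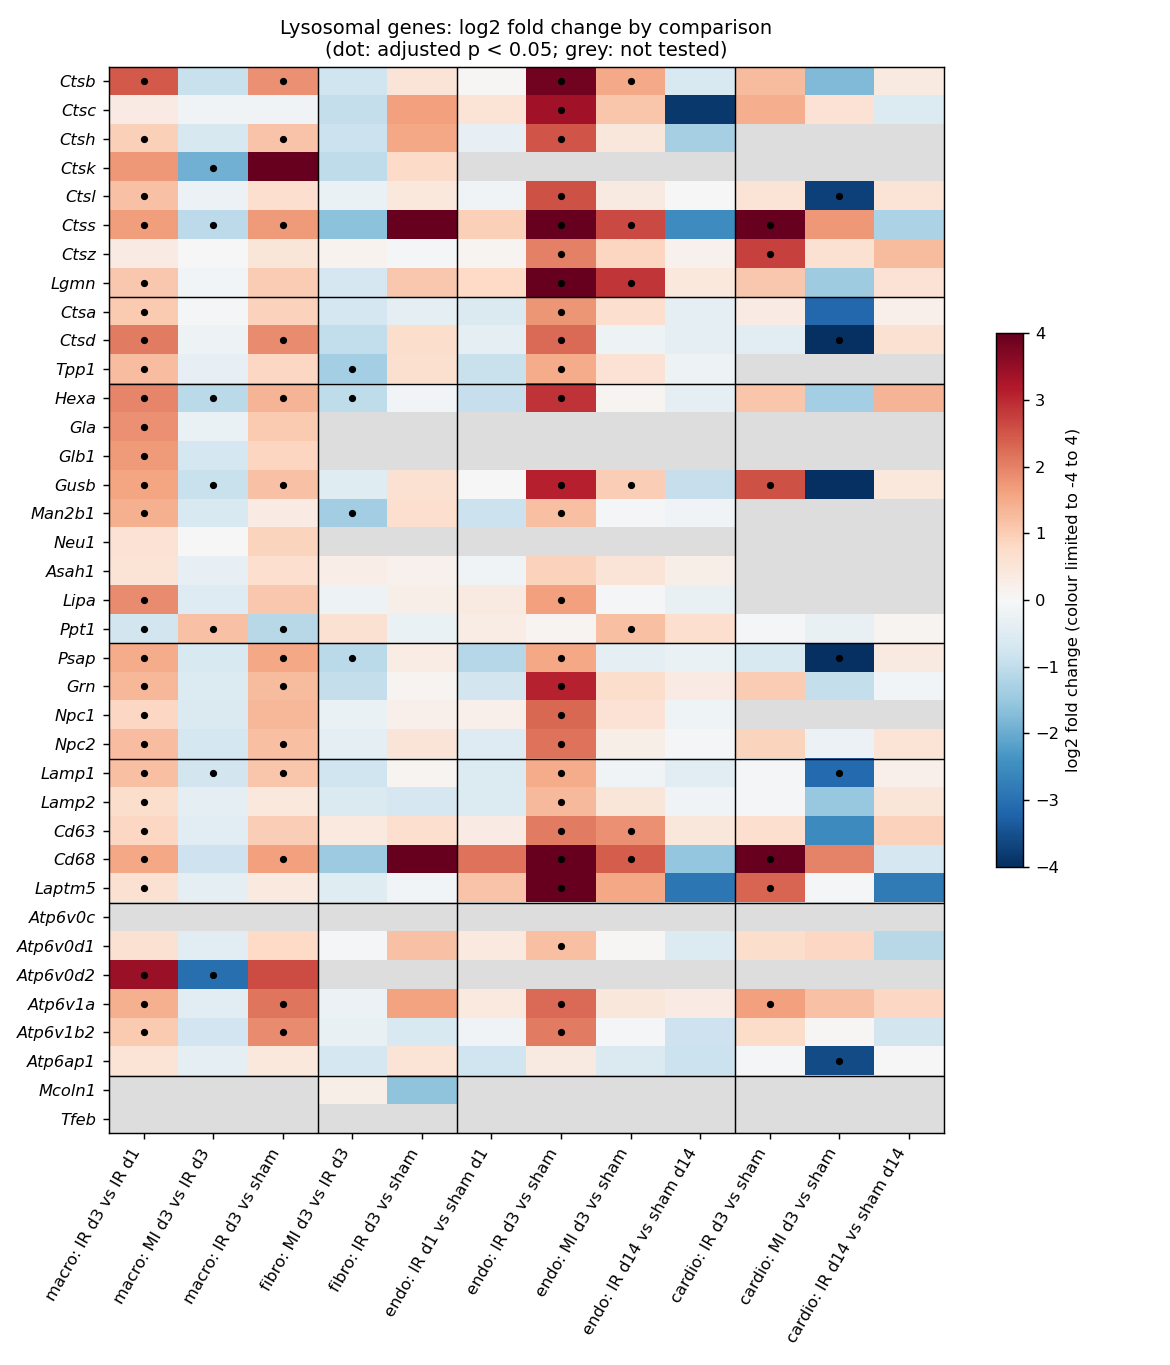
Log2 fold change of each member (rows, ordered by role) in the 12 comparisons of groups within a class (columns), with calls past an adjusted p of 0.05 marked. The column of macrophages IR day 3 against IR day 1 holds 27 calls, 26 of them higher, and Ppt1 is the only gene called against the direction of the other calls in each of the 3 macrophage columns.

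Cardiomyocytes of IR day 3 had higher counts of Ctss, Cd68, Gusb, Ctsz, Laptm5 and Atp6v1a than sham. Of 23 members tested, 6 were higher and none lower (5 against 9 plates), with 3.2% of all genes passing in either direction and 2.51% as higher. The median log2 fold change was 0.88, against -0.00 over all genes. Asah1, Atp6v0c, Atp6v0d2, Ctsh, Ctsk, Gla, Glb1, Lipa, Man2b1, Mcoln1, Neu1, Npc1, Tfeb and Tpp1 did not pass the filter. Ctss was at 0, 423, 21.5, 287 and 622 CPM in IR day 3 and at 0 to 27.7 CPM in sham (4.81 ± 0.54, adjusted p = 4.68e-10, edgeR). Cd68 was at 0, 115, 0, 125 and 198 CPM in IR day 3 and at 0 to 9.45 CPM in sham (5.00 ± 0.70, adjusted p = 2.71e-07, edgeR). Gusb was at 0, 89.4, 107, 107 and 178 CPM in IR day 3 and at 0 to 29.2 CPM in sham (2.56 ± 0.51, adjusted p = 0.00039, edgeR). Replicate 3, which had 5524 UMIs, gave 0 for all 3 genes, and replicate 5 lay within the sham range for Ctss and Cd68. Ctsz, Laptm5 and Atp6v1a were higher by 2.74, 2.32 and 1.63 (adjusted p = 0.000209, 0.00373 and 0.0248, edgeR).

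The members that lead in resting cardiomyocytes did not pass this test. Ctsd was at 181, 1892, 1590, 1862 and 1605 CPM in IR day 3, and at 2523, 1455, 2483 and 1728 CPM in sham day 1 and 2211, 1451, 1619, 1465 and 1579 CPM in sham day 14 (-0.45 ± 0.45, adjusted p = 0.749, edgeR). Psap was at 362, 1410, 988, 1343 and 1403 CPM in IR day 3 and at 976 to 2062 CPM in sham (-0.61 ± 0.40, adjusted p = 0.543, edgeR). Lamp1 was at 0, 1418, 924, 1074 and 2149 CPM in IR day 3 and at 841 to 1731 CPM in sham (-0.09 ± 0.39, adjusted p = 0.957, edgeR). Apart from replicate 3 the groups overlapped for all 3 genes. Ctsb was at 0, 3317, 1547, 2489 and 4698 CPM against 608 to 1449 CPM in sham, so that 4 of 5 plates lay above every sham plate, but did not pass (1.28 ± 0.42, adjusted p = 0.0741, edgeR). Hexa was at 0, 133, 150, 107 and 227 CPM against 0 to 113 CPM in sham (1.11 ± 0.41, adjusted p = 0.141, edgeR).

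Macrophage markers summed to 279 to 1680 CPM on the IR day 3 cardiomyocyte plates, against 99.3 to 411 CPM in sham day 1 and 0 to 129 CPM in sham day 14, and 123 of 277 cells had them above 0.1% of UMIs. With those cells left out in all groups, 2 of 27 members tested were higher, Ctss (4.40) and Ctsz (1.96), beside 2.08% of all genes, and the member share was 1.02% ± 0.200 (n = 4). A cluster led by Nppa and Myh7 held 210 of the 277 cells, but 5 of 256 in sham day 1 and 5 of 240 in sham day 14. The members took 1.25% to 1.72% of UMIs in that cluster on 4 IR day 3 plates, and its part in the 6 calls was not tested. Fibroblast markers summed to 838 to 3152 CPM (median 2845) on the IR day 3 plates. In sham they summed to 388 to 1343 CPM (median 776) at day 1 and 403 to 1188 CPM (median 526) at day 14. Their part was not tested either. The count of 6 fell to 1, Ctss, without IR day 3 replicate 7. Its loss ended the calls of Ctsz (2.10) and Laptm5 (1.76) and took Cd68, Gusb and Atp6v1a below the filter, as did that of 8 other single plates for Gusb. Atp6v1a was also lost without IR day 3 replicate 4 (1.49), sham day 1 replicate 1 or 3 (1.56 and 1.50) or sham day 14 replicate 1 (1.54). DESeq2 called 4 of the 6, without Atp6v1a (1.54) and Laptm5 (2.21). Atp6v1a also lost its call with sham day 1 or sham day 14 alone (1.56 and 1.70, adjusted p = 0.0956 and 0.144, edgeR) and Laptm5 with sham day 14 alone (1.17, adjusted p = 0.55, edgeR). With the replicate block Ctss and Cd68 alone kept their calls, and Ctsz was at 2.60, Gusb at 2.26, Laptm5 at 1.82 and Atp6v1a at 0.93 (adjusted p = 0.0539, 0.104, 0.166 and 0.783, edgeR). Of 35 other lysosome genes Gpnmb and Cstb (2.40, adjusted p = 0.000834, edgeR) were higher.

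Cardiomyocytes of MI day 3 were nearly absent from the plates. A single MI plate held 5 or more, with 6 cells and 73473 UMIs, and it was set against 9 sham plates, with its own spread taken to match that among the plates of the remaining groups. With 1 MI plate the difference has no replicate check. The fit placed 5 of 23 members lower and none higher, beside 13.6% of all genes in either direction and 6.15% as lower, and these calls compare that plate with sham and do not test MI. The median log2 fold change was -1.36, against -0.26 over all genes. On that plate Psap was at 109 CPM, Ctsd at 109 CPM and Lamp1 at 150 CPM, each below every sham plate. The other lower members were the pump accessory gene Atp6ap1 and Ctsl, with log2 fold changes of -3.58 and -3.74.

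All 19 MI cardiomyocytes, 2 to 6 a plate, were therefore also pooled, as a description with counting intervals only. In 218228 pooled UMIs the 37 genes had 427 UMIs, or 1957 CPM, against 8568 CPM in 471 sham cardiomyocytes. Ctsd had 30 UMIs, or 137 CPM (95% exact Poisson interval 92.8 to 196), against 1999 CPM in sham. Psap had 24 UMIs, or 110 CPM (70.5 to 164), against 1673 CPM, and Lamp1 had 40 UMIs, or 183 CPM (131 to 250), against 1139 CPM. Several members stood the other way, among them the pump subunits of the sector that hydrolyses ATP. Atp6v1a was at 64.2 CPM (35.1 to 108) against 30.8 in sham, and Atp6v1b2 at 137 CPM (92.8 to 196) against 80.8. Ctss was at 36.7 CPM (15.8 to 72.2) against 10.8 in sham, on 8 UMIs. Cd68, at 22.9 CPM (7.44 to 53.5), was above sham as well, on 5 UMIs. Tfeb, Gusb, Atp6v0d1 and Ctsc were also higher, with intervals that held the sham value. These cells also differed in other respects, with a median mitochondrial share of 5.83% of UMIs against 81.2% and 83.6% in the cardiomyocytes of sham day 1 and day 14, and 16 of the 19 fell in a cluster led by Nmrk2, Uck2 and Hspb1. The part of these differences in the lower member counts was not tested.

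At IR day 1, which was not tested in cardiomyocytes, the 8 plates spread widely. Ctsd was at 109, 506 and 2275 CPM (lowest, median, highest), Psap at 110, 606 and 1429 CPM, and Lamp1 at 219, 598 and 1086 CPM, with medians below every sham plate for all 3 genes. Cardiomyocyte markers were lower on those plates too, at 17226 to 69263 CPM against 83440 to 115832 CPM in sham day 1 and 99502 to 134553 CPM in sham day 14. A cluster led by Slc2a4 and Myh6 held 2 of 95 IR day 1 cardiomyocytes, against 89 of 256 in sham day 1 and 174 of 240 in sham day 14, and the part of these differences in the levels was not tested. Ctss was at 0, 74.7 and 516 CPM, with macrophage markers at 328 to 2998 CPM on those plates. At day 14 no member passed between IR and sham cardiomyocytes (edgeR, 3 against 5 plates, 23 tested, background 0.253%). In that comparison 3 members had an unadjusted p under 0.05, DESeq2 called 0, and the median log2 fold change was 0.35 against 0.02 over all genes. Ctsd was at 2391, 2339 and 2346 CPM in IR day 14, above the 1451 to 2211 CPM of sham day 14, without passing the test. Mcoln1 was at 51.9, 53.1 and 53.3 CPM in IR day 14, within its sham range. With marker-bearing cells left out Laptm5 was lower (-3.63, adjusted p = 0.00938, edgeR), beside 0.564% of all genes. Over all cardiomyocytes Laptm5 had 29 UMIs on sham day 14 replicate 5 and 0 to 2 on the other sham day 14 plates. In IR day 14 it had 7, 0 and 2.

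Whether endothelial cells and cardiomyocytes differed in their IR day 3 to sham change was tested in a joint fit of both classes. Of 31 members 1 passed, Lgmn, whose change was larger in endothelial cells by 3.79 ± 0.72 on the log2 scale (adjusted p = 0.0105, edgeR), and it was the only one of 7952 genes to pass (0.0126%). Its cardiomyocyte plates gave 0 to 277 CPM in IR day 3 and 0 to 184 CPM in sham. Without IR day 3 replicate 4 the call was lost (3.60). Macrophage markers summed to 379 to 11048 CPM on the IR day 3 endothelial plates and to 279 to 1680 CPM on the cardiomyocyte plates, and without the cells carrying them the endothelial change of Lgmn itself did not pass (2.00, adjusted p = 0.178, edgeR). Another 16 members had an unadjusted p under 0.05 in that test without passing it, and the median difference of the members was 1.41 against 0.03 over all genes.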

How the data were processed

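Single cells of 36 plates were sequenced by SORT-seq. The authors mapped reads with BWA (version and annotation not given in the sources used here; builds named in the submitters' processing notes are GRCm38 and mm10) and deposited UMI counts per gene and well, 36 tables with 13824 wells, with no normalization. Spike-in and mitochondrial UMIs were left out of the UMI minimum, and the repeat gene Rn45s out of library sizes. A plate deposited 2 times was averaged (Spearman correlation of its well depths 0.910), and wells of at least 500 UMIs that copied another plate's well were left out. Each UMI had 6 bases, which allows 4096 molecules of a gene to be told apart in a well, and the highest member count in 1 well was 1878. Counts corrected for shared UMIs were therefore an alternative.

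Wells of at least 1000 UMIs were clustered without the members (scanpy 1.11.5 and leidenalg 0.10.2 in Python 3.11.15, 2000 variable genes, 30 components, 15 neighbours, resolution 1). Doublets were not called. Clusters needed 3 markers for a name. Counts were summed per plate and class (at least 5 cells) and tested with edgeR 4.0.16 (R 4.3.3, limma 3.58.1, filterByExpr, TMM, quasi-likelihood F test, all groups of a class in 1 fit, Benjamini-Hochberg over all genes tested, threshold 0.05). Interactions between classes were fitted jointly. The p-values given come from this fit, from the joint fits, or from an alternative named beside them. The code was tested on simulated data.

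Values on every plate are given for the members called in most comparisons, up to 8, and for Ctsk, Atp6v0d2, Tfeb and Mcoln1, and at most 5 other lysosome genes per direction are named. The endothelial plate values of Lgmn were chosen after they were seen. The members and lists were chosen with earlier results of these data known. Alternatives were RLE size factors, DESeq2 1.42.0, no filter on low counts, 10 cells per plate, 2000 UMIs per well, copied wells kept, corrected counts, Rn45s kept, cells with over 1% of UMIs from another class's markers left out, other sham plates, the replicate number as a block, and each plate left out. Gene positions and overlaps are those of GENCODE M21 (GRCm38.p6), and all 37 members have a position there. Some genes of these lists are not reported here.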

Additional observations from a re-analysis of the deposited data

Results flagged for a closer look

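In 177 groups of 4 to 10 plates, 21 held a plate set apart from the others by Dixon's test at the 95% level. A rate of about 1 in 20 would hold for independent, normally spread values. Counts near 0 and several genes of the same plate are not such values, so the 21 cannot be set against that rate. Where all other plates were at 0, a single plate with UMIs was flagged in any case. Cd68 and Ctsk in sham day 14 cardiomyocytes were flagged in this way on 1 UMI each. In macrophages of IR day 1, replicate 9 had Ctsk at 207 CPM, where the next plate had 16.1 CPM. In fibroblasts, IR day 1 replicate 7 had Ctss at 171 CPM, and MI replicate 5 had Hexa at 110 CPM.

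In endothelial cells of sham day 14, replicate 8 stood apart by its member share (0.794%) and by Cd68 (70.5 CPM), Ctsb (1104 CPM) and Ctsk (23.5 CPM), and replicate 2 by Gusb (165 CPM). Replicate 8 also had the highest macrophage markers of its group. In IR day 1 endothelial cells, replicate 1 stood apart by its member share (0.895%), Ctss (228 CPM), Gusb (198 CPM), Ctsb (1172 CPM) and Ctsd (1065 CPM). MI replicate 5 had the highest endothelial Ctsk, 113 CPM.

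In cardiomyocytes, sham day 1 replicate 1 had Cd68 at 9.45 CPM and replicate 4 had Atp6v0d2 at 64.0 CPM. Sham day 14 replicate 5 had Cd68 at 5.84 CPM, and replicate 1 had Ctsd at 2211 CPM and Ctsk at 5.23 CPM. IR day 1 replicate 3 had Ctsk at 23.45 CPM, and IR day 3 replicate 3, the plate with 5524 UMIs, had the lowest Ctsd, 181 CPM.

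The change of Lgmn from sham to IR day 3 differed between endothelial cells and cardiomyocytes by 3.79 on the log2 scale in the joint fit. The endothelial change of Lgmn did not pass without the cells carrying macrophage markers (2.00, adjusted p = 0.178, edgeR).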

How the results depend on the processing

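The 97 calls of members were recomputed 1082 times under the alternatives, where 953 kept direction and call, 123 lost the call and 6 turned. For IR day 3 macrophages against sham, the setting with sham day 1 alone repeats the main test, so its calls were kept by construction. Over 1151 repeats with a plate left out, 1016 kept the call, 135 lost it and none turned. In 14 and 13 further cases a called member fell below the filter. The cause of each change was not tested. At this depth Atp6v0c and Tfeb could be tested in none of the 12 comparisons within a class.

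Counts of members past the threshold that moved by over 1.5 times were as follows. For MI against IR day 3 macrophages the 7 calls became 11 with RLE size factors and 12 at 2000 UMIs per well, and for fibroblasts the 4 calls became 7 with RLE size factors, 12 at 10 cells per plate and 1 without cells carrying another class's markers. For IR day 3 against sham fibroblasts, 0 became 1 without the filter and 1 with sham day 1 alone. In endothelial cells the 0 at IR day 1 became 1 without the filter, 1 at 10 cells, 1 without cells carrying another class's markers and 2 without those carrying macrophage markers. The 26 at IR day 3 became 11 and 2 without those sets of cells, the 7 in MI became 12 without the filter and 4 with either sham day alone, and the 0 at IR day 14 became 1 without the filter. In cardiomyocytes the 6 at IR day 3 became 11 at 10 cells and 2 without cells carrying macrophage markers, the 5 in MI became 3 without the filter, and the 0 at IR day 14 became 1 without the filter and 1 without cells carrying macrophage markers. The endothelial minus cardiomyocyte count of 1 became 5 with RLE size factors, 2 without the filter and 7 at 10 cells. Without cells carrying macrophage markers, the endothelial IR day 3 log2 fold changes turned to -1.57 for Atp6v0d1, -0.28 for Atp6v1a, -0.82 for Ctsh, -0.11 for Lamp1, -0.49 for Man2b1 and -0.84 for Psap. With Rn45s kept, the member share became 0.660% in IR day 14 fibroblasts, and 0.655%, 0.588%, 0.400% and 0.766% in cardiomyocytes of sham day 1, sham day 14, IR day 1 and IR day 14.

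With a plate left out, the counts ran from 23 to 31 for macrophages of IR day 3 against IR day 1, 4 to 12 for MI against IR day 3 and 4 to 15 against sham. Fibroblasts gave 1 to 9 for MI and 0 to 1 for IR day 3. Endothelial cells gave 0 to 2 at IR day 1, 18 to 26 at IR day 3, 5 to 8 in MI and 0 at IR day 14. Cardiomyocytes gave 1 to 8 at IR day 3, 5 to 6 in MI and 0 at IR day 14. The interactions gave 0 to 2 for endothelial cells minus cardiomyocytes and 0 for macrophages minus fibroblasts. Cardiomyocytes of MI without their only plate could not be run, and 10 cells per plate left no plates to compare in that comparison and in IR day 3 macrophages against sham.

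Replicate numbers did not pair the plates, since the correlations of deviations of plates with the same number ran from -0.184 to 0.0901. With the replicate block there were 3 calls in macrophages of MI against IR day 3 and 5 of IR day 3 against sham, 0 in fibroblasts of MI, and 17 in endothelial cells and 2 in cardiomyocytes of IR day 3. In the MI cardiomyocyte comparison the median of all genes was -0.26, and -0.80 without the filter. The joint endothelial and cardiomyocyte fit at 10 cells gave -0.13.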
